A study of Mus musculus with 28 samples.

Results

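Oct4 binding sites of Spen KO mouse embryonic stem cells (mESCs) were set against the H3K27Ac peaks of the same cells. An Oct4 site was a ChIP-seq peak of Oct4 replicate 1 that shared at least 1 bp with a peak of replicate 2, which held for 1392 of the 2617 peaks of replicate 1, matched by 1336 of the 3028 peaks of replicate 2. The series holds 11562 Oct4 peaks in 4 libraries and 227343 peaks in all its 10 lists. Of the 1392 sites, 729 overlapped an H3K27Ac peak by at least 1 bp and 663 did not, and of the 11932 H3K27Ac peaks, 670 held an Oct4 site and 11262 did not. The cells were HATX mESCs, a haploid line of mixed genomic background with an X-linked Xist transgene that doxycycline switches on, in which most of the Spen gene was deleted. They were grown in serum with LIF on gelatin, and the labels name no doxycycline for these libraries. Every library came from Spen KO clone 2, so the values describe 1 clone, and each antibody has 2 libraries, which the methods call technical replicates for the histone marks. Depth per library is unknown, because the lists hold no read counts. The 28 samples of the series include 8 ChIP and 6 input libraries of Spen KO cells.

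Oct4, encoded by Pou5f1, is a POU-domain transcription factor without which pluripotency is lost. It binds an octamer element alone or, with Sox2, a composite element that joins a SOX site to part of the octamer. H3K27Ac is acetylation of lysine on the tail of histone H3, placed by p300 and CBP at active promoters and enhancers. H3K4me3 marks the start sites of active and poised genes, and H3K9me3 marks heterochromatin, including many silent endogenous retroviruses. Spen is an RNA-binding corepressor that acts through the deacetylase HDAC3.

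The lists carried the marks of embryonic stem cells. All 10 embryonic stem cell markers checked (Pou5f1, Nanog, Sox2, Esrrb, Zfp42, Dppa5a, Tdh, Klf4, Tdgf1 and Utf1) had an H3K27Ac peak within 1000 bp of a transcription start site (TSS), against 20.7% of all 22232 protein-coding genes. None of 8 fibroblast, 5 neural progenitor or 6 endoderm markers had one. Of them, 3, 4 and 5 had an H3K4me3 peak there, against 63.9% of all protein-coding genes. These marker sets are small, so the absence of H3K27Ac in any single set cannot be told from the 20.7% of all genes. The Spen gene held 1 H3K27Ac peak and 6 H3K4me3 peaks and no Oct4 peak, so the lists alone do not check the deletion.

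Sequences at the sites are shown first, because the clearest sequence difference between the Oct4 sites with and without H3K27Ac was in the octamer. Each is the 200 bp around the replicate 1 summit, from the plus strand of mm9 (NCBIM37). Capitals mark exact matches, on either strand, to the octamer ATGCAAAT or to the composite TTGTNATGC, which overlap by the letters ATGC when they share a site. The windows were picked from the named sites after their values were seen, as examples with an octamer, with a composite, with a repeated sequence and with none of these.

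With H3K27Ac, the windows near Pou5f1 (chr17:35640933-35641132), in an intron of Trp53 (chr11:69395409-69395608), near Sall1 (chr8:91527456-91527655) and near Zmat4 (chr8:24672767-24672966) read as follows.
Pou5f1: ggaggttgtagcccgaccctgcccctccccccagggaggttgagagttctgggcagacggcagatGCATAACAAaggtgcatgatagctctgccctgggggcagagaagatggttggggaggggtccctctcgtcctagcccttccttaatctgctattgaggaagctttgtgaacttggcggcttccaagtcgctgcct
Trp53: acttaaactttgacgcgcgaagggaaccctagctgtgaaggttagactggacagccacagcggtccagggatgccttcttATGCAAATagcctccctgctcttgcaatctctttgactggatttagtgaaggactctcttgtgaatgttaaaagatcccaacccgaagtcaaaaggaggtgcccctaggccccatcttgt
Sall1: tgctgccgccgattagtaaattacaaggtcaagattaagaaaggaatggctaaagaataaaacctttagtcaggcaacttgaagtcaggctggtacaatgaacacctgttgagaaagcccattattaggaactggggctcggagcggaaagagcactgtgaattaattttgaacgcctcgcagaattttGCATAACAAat
Zmat4: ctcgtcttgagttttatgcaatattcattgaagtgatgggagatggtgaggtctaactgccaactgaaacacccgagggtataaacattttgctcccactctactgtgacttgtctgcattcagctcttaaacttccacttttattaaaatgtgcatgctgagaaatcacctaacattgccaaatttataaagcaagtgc

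Without H3K27Ac, the windows near Shf (chr2:122195961-122196160), in Lats2 (chr14:58351604-58351803), near Diap3 (chr14:86795854-86796053), in Abca4 (chr3:121848416-121848615), near Gtdc1 (chr2:44380967-44381166) and near Creb5 (chr6:53509415-53509614) read as follows.
Shf: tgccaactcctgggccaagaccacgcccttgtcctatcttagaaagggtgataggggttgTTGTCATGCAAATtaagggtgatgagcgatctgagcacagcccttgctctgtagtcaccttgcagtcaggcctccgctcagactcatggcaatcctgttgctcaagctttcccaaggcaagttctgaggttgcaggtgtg
Lats2: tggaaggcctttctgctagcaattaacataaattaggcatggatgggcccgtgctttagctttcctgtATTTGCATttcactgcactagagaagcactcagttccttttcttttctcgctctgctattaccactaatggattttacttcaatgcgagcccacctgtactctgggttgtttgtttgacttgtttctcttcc
Diap3: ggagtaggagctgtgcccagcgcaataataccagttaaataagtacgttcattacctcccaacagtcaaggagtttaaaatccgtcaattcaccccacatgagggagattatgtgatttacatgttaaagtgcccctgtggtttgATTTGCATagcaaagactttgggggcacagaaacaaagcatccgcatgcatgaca
Abca4: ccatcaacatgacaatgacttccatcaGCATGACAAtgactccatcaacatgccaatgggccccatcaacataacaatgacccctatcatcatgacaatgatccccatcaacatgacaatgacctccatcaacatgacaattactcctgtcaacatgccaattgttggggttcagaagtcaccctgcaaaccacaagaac
Gtdc1: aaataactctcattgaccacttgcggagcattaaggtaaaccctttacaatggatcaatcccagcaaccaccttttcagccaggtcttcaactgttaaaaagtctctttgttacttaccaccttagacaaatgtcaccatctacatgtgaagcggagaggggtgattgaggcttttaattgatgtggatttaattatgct
Creb5: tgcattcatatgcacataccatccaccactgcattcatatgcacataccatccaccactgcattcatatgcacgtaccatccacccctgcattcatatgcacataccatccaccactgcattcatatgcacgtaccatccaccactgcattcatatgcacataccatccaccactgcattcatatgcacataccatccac

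The windows of Trp53, Lats2 and Diap3 each held an octamer, those of Pou5f1, Sall1 and Abca4 each held a composite, and in the Shf window the composite and the octamer ran into each other. The Zmat4, Gtdc1 and Creb5 windows held neither word, which says only that these exact letters are absent from them. In the Creb5 window 93.7% of the 12-base words occurred more than once within the window, and in the Abca4 window 17.99% did.

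Slightly more than every other Oct4 site lay in an H3K27Ac peak. The share was 52.4% (729 of 1392, Wilson 95% interval 49.7 to 55.0, which covers counting error only), while H3K27Ac peaks cover 0.669% of the mm9 chromosomes. As background, 47.3% of all replicate 1 peaks and 45.2% of all replicate 2 peaks overlapped H3K27Ac. The share was lower among peaks found in a single library: 41.6% of the 1225 replicate 1 peaks without a replicate 2 partner (38.9 to 44.4) and 38.4% of the 1692 replicate 2 peaks without a replicate 1 partner (36.1 to 40.7). With 1 combined H3K27Ac list and 2 Oct4 libraries of 1 genotype there are no groups of samples to permute, so no p-value is given. Values for each Oct4 library alone are given beside the main ones. They cover all peaks of a library, also the unshared ones, so they are not replicates of the values for shared sites.

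Oct4 fold enrichment was much the same at sites with and without acetylation. In replicate 1, the median fold enrichment over input was 6.85 with H3K27Ac (quartiles 6.07 and 8.10) and 6.85 without it (6.16 and 8.10). In replicate 2 the medians were 7.19 (5.96 and 8.94) and 7.36 (6.14 and 8.76). The ranges overlapped almost wholly, and the ratio of the medians of the mean fold, with over without, was 0.998, against 1.05 and 1.00 for all peaks of replicate 1 and of replicate 2 alone. Fold enrichment takes few distinct values in these lists (290 in replicate 1, where 103 sites stand at the single value 6.85, and 339 in replicate 2), which is why the medians of replicate 1 coincide and the points form columns in the plot. From the lowest to the highest quintile of mean fold, H3K27Ac overlapped 54.7%, 48.9%, 53.0%, 49.6% and 55.6% of the sites, and the intervals overlapped. Across the 1392 sites the folds of the 2 libraries had a Spearman rho of 0.38, and across the 767 overlapping pairs the mean Oct4 fold and the H3K27Ac score had a rho of 0.07. Both are descriptions across sites of the same libraries.

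**Figure D1:**
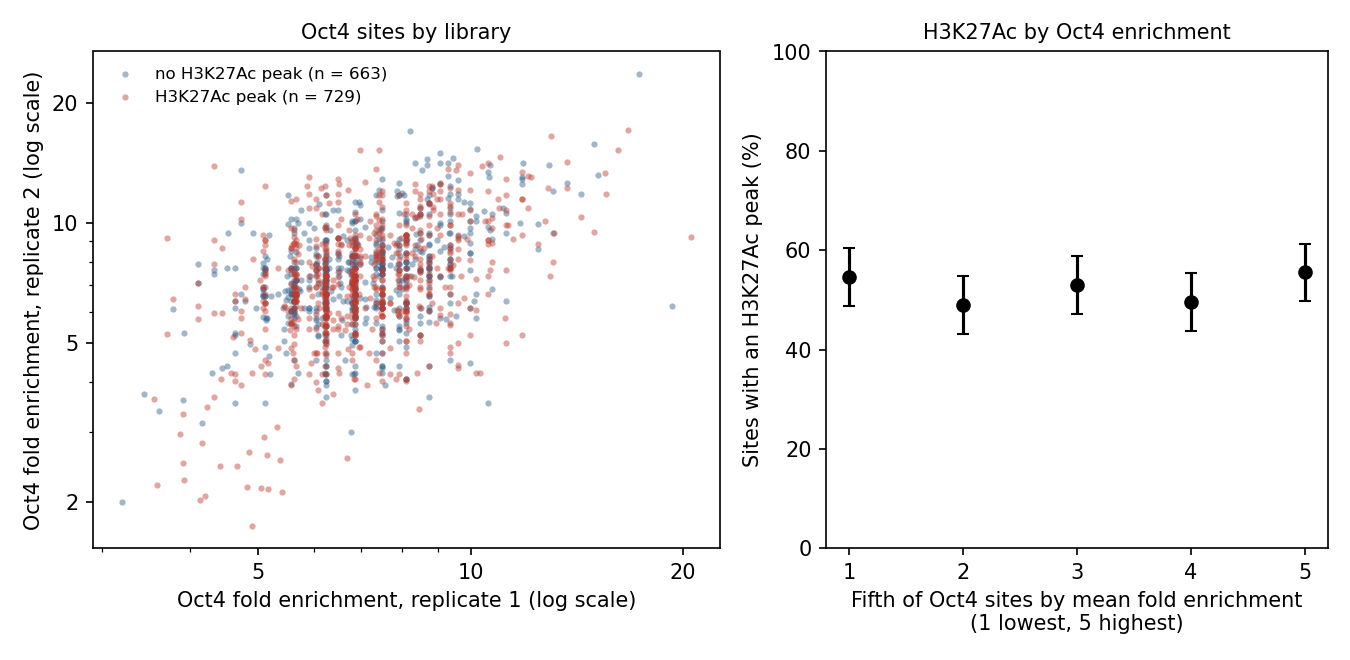
Left, fold enrichment over input of each of the 1392 Oct4 sites in replicate 1 (x) and replicate 2 (y), both on log axes, with the 729 sites in an H3K27Ac peak in red and the 663 others in blue. Right, the share of sites in an H3K27Ac peak for each quintile of mean Oct4 fold, with Wilson 95% intervals; the shares stay between 48.9% and 55.6%.

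Oct4 peaks in acetylated chromatin were slightly wider. Their median width was 241 bp against 207 bp outside H3K27Ac, a ratio of 1.16 (1.12 and 1.14 for each library alone). A wider peak has more chance to overlap, and when the overlap had to span 50% of the shorter peak the ratio was 1.07.

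The strongest Oct4 sites were found in both sets. Of those with H3K27Ac, the highest overlapped the start of Gsk3a, a kinase inhibited by insulin and Wnt signals, with folds of 16.7 and 17.1 in replicates 1 and 2. It was followed by an intergenic site 73.2 kb from Zmat4 (16.2 and 15.2), a site 4 bp from a TSS of the H3K4 methyltransferase gene Mll1 (20.6 and 9.22), a site in an exon of Cnpy1 (13.0 and 16.6) and a site 7.44 kb from Ssr2 (15.5 and 13.3). The rest of the 10 highest included sites in an intron of the tumour suppressor Trp53 (13.7 and 14.2), 41.7 kb from Prdm14 (13.7 and 12.3), a repressor of differentiation genes in mESCs, and 40.2 kb from Sall1 (11.8 and 13.4), which encodes a zinc-finger factor. The order of these sites depends on the library, as the Mll1 site shows.

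Of the sites without H3K27Ac, the highest lay in an intron of Abca4, a retinal lipid transporter gene, 85.0 kb from the TSS of Gm4609, and at folds of 17.3 and 23.6 it was the strongest of all 1392 sites by the mean. The sites near Gtdc1 (14.96 and 15.8), in Slc35f4 (15.2 and 13.2) and near Creb5 (12.9 and 13.95) were next. A site 1.33 kb from Mycn, the N-Myc gene, had folds of 13.7 and 12.6 and ended 203 bp from the nearest H3K27Ac peak, while the Gtdc1 site was 4422879 bp away from one. The Lats2 intron site (10.2 and 15.3), 1.07 kb from a TSS of this Hippo pathway kinase gene, was 65.0 kb from acetylation. Of these 10 sites, 3 had windows with at least 20% repeated 12-base words, against 0 of the 10 highest with H3K27Ac. Over all sites the shares were 3.02% without H3K27Ac (1.96 to 4.61) and 1.92% with it (1.15 to 3.20), with overlapping intervals.

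Most sites without H3K27Ac were far from any. Of the 663, 103 lay within 1 kb of an H3K27Ac peak, 19 at 1 to 5 kb, 67 at 5 to 20 kb, 178 at 20 to 100 kb and 296 beyond 100 kb, with a median of 79491 bp. Where a gap of 1000 bp was allowed, 59.8% of the Oct4 sites counted as acetylated. Among 767 overlapping pairs, the Oct4 summit fell inside the H3K27Ac peak in 643 (83.8%). The distance from the centre of each peak to its edge was cut into 5 equal parts. From the innermost to the outermost, the parts held 30.0%, 22.6%, 18.4%, 12.1% and 17.0% of these 643 summits.

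The octamer was found more often at Oct4 sites without H3K27Ac. It was present in 8.90% of the windows without H3K27Ac (59 of 663, 6.96 to 11.3) and in 3.70% of those with it (27 of 729, 2.56 to 5.34), a difference of -5.20 percentage points (Newcombe interval -7.86 to -2.66). Windows of equal length 1000 bp away held it in 0.905% and 0.960%, and centres of H3K27Ac peaks without Oct4 in 0.524%, so both sets of sites exceeded their surroundings. The difference had the same direction but was smaller over all peaks of replicate 1 (-1.94) and all peaks of replicate 2 (-2.55). With the shared sites taken from the replicate 2 peaks and their summits, it was -3.47 (-6.33 to -0.731). Away from a TSS the shares were 9.57% and 4.10%, and within 1000 bp of one they were 5.50% (6 of 109) and 1.68% (2 of 119), with overlapping intervals. Outside H3K27Ac, the median folds of sites with and without an octamer were 7.48 and 6.85 in replicate 1 and 7.73 and 7.19 in replicate 2. Within H3K27Ac they were 6.50 and 6.85 in replicate 1 and 7.59 and 7.19 in replicate 2, so the order was not the same in every case. Median GC content of the windows was 50% with and 49% without H3K27Ac.

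In percentage points, the composite and the words of partner factors differed less than the octamer did. The composite was in 6.31% of windows with (46 sites) and 7.24% without H3K27Ac (48 sites), against 1.10% and 0.603% in the flanks, and the interval of the difference was -3.64 to 1.72. The KLF word GGGNGTGG, bound by Klf factors, was in 14.3% and 12.1%. The ESRRB word TCAAGGTCA, bound by the orphan receptor Esrrb, went the other way from the octamer, on small counts. It was in 2.47% of windows with H3K27Ac (18 sites, 1.57 to 3.87) and 0.905% without (6 sites, 0.415 to 1.96). The flanks held it in 1.03% and 0.679%, and the centres of H3K27Ac peaks without Oct4 in 0.747%.

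**Figure D2:**
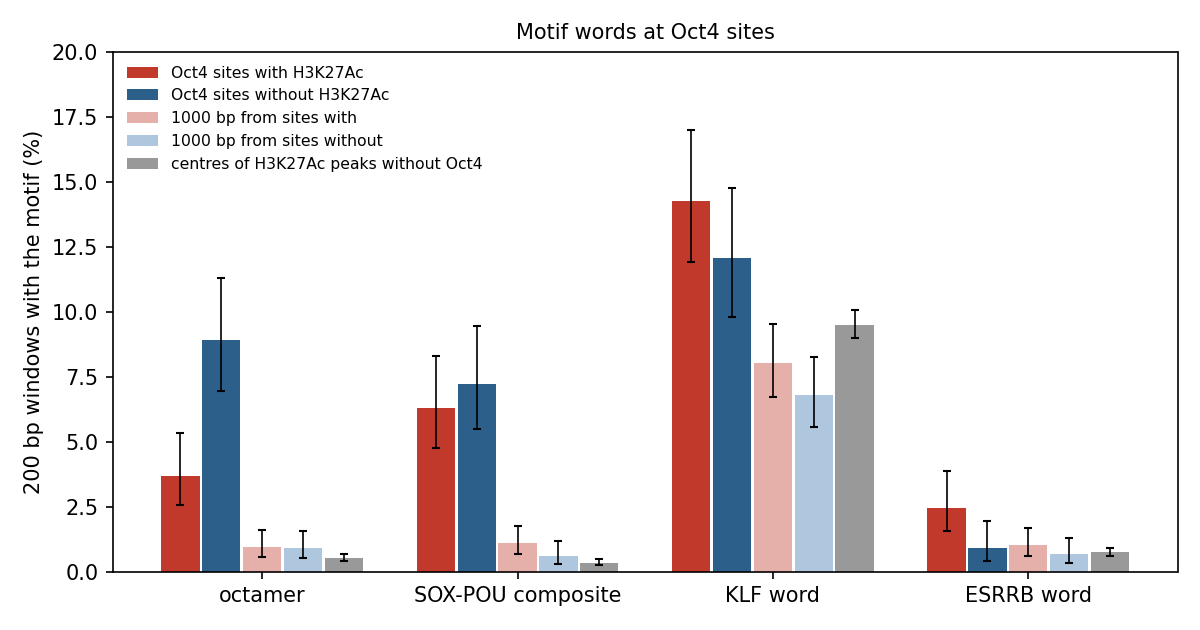
Share of 200 bp windows that hold each motif word, for Oct4 sites with (red) and without (blue) H3K27Ac, windows 1000 bp from those sites (pale colours) and centres of H3K27Ac peaks without Oct4 (grey); error bars are Wilson 95% intervals. The octamer bar is 8.90% without and 3.70% with H3K27Ac, and the composite bars are 7.24% and 6.31%.

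Windows made mostly of multi-copy sequence were rare. Windows in which at least 50% of the 31-base words occur at least 10 times in the genome made up 0.823% of those with H3K27Ac (6 of 729) and 1.81% of those without (12 of 663), against 4.12% and 3.92% at 1000 bp away. Of the 39 sites without H3K27Ac that lay in an H3K9me3 domain, 5 had such a window (5.60% to 26.7%). Of the 28 such sites with H3K27Ac it was 1 (0.633% to 17.7%), and the intervals overlapped. The methods describe unique alignments, whose part in these shares was not tested.

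The distance to genes was similar in both sets of Oct4 sites. A TSS lay within 1000 bp of 16.3% of the sites with H3K27Ac (119 of 729) and 16.4% of those without (109 of 663), with an interval of the difference of -4.04 to 3.77 points. The median distances to a TSS were 15736 bp and 17467 bp.

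H3K4me3 followed H3K27Ac at Oct4 sites. It overlapped 47.9% of sites with H3K27Ac (349 of 729) and 22.8% of those without (151 of 663), a difference of 25.1 points (20.2 to 29.8), and 20.9 and 15.8 for the peaks of each library alone. H3K4me3 peaks cover 1.90% of the genome. Close to a TSS the shares were 95.8% and 78.9%, and farther away they were 38.5% and 11.7%. The sites thus fell into 349 with both marks, 380 with H3K27Ac alone, 151 with H3K4me3 alone and 512 with neither. A TSS lay within 1000 bp of 57.0% of the sites with H3K4me3 alone and of 32.7% with both marks. With neither mark the share was 4.49%, and with H3K27Ac alone it was 1.32%. The octamer was in 10.2% of the windows with neither mark, 4.64% with H3K4me3 alone, 3.95% with H3K27Ac alone and 3.44% with both.

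H3K9me3 was scarce at all these sites. Its domains cover 13.97% of the genome and overlapped 3.84% of Oct4 sites with H3K27Ac (28 sites) and 5.88% without (39 sites), a difference of -2.04 points whose interval included 0 (-4.41 to 0.225). Over all replicate 1 peaks, also those not found in replicate 2, the difference was -9.61 (4.76% against 14.4%), and over all replicate 2 peaks it was -3.17 (4.90% against 8.07%), so its size depends on which peaks are taken.

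**Figure D3:**
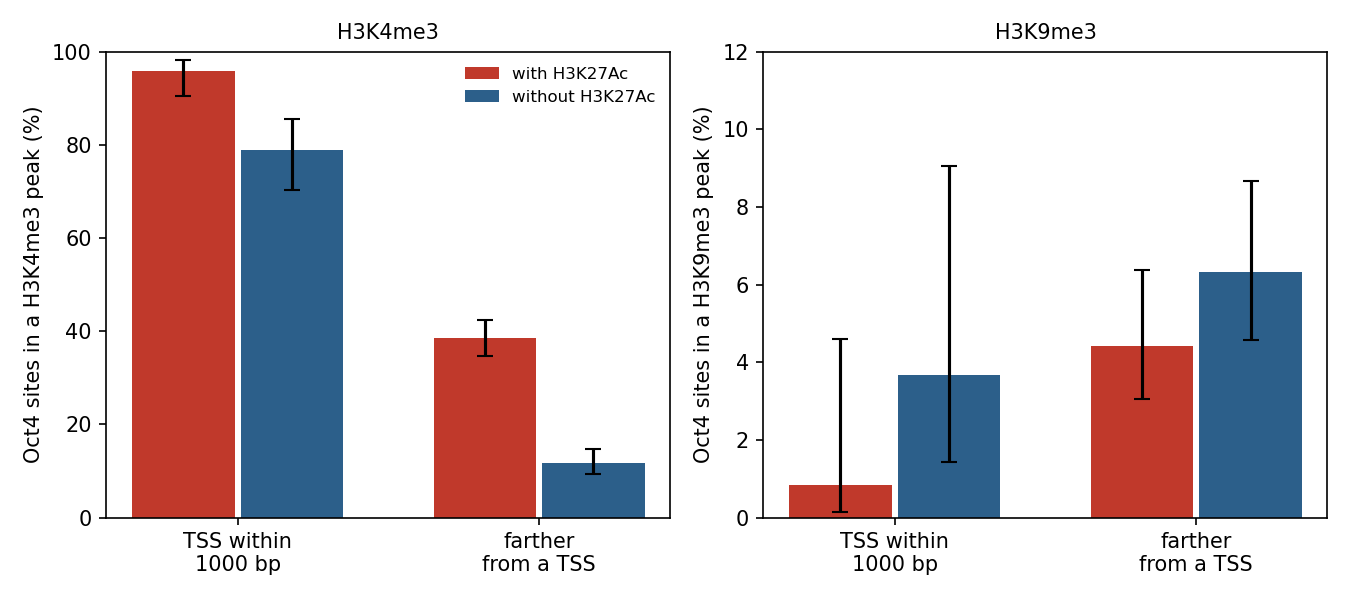
Share of Oct4 sites in an H3K4me3 (left) or H3K9me3 (right, on a shorter axis) peak, for sites with (red) and without (blue) H3K27Ac, by distance to a TSS, with Wilson 95% intervals. Away from a TSS, H3K4me3 overlapped 38.5% of the sites with and 11.7% of those without H3K27Ac.

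Seen from the H3K27Ac list, peaks with an Oct4 site tended to be stronger and wider, although 117 of the 670 were in the weaker 50% of the list and 137 in the narrower 50%. Of all H3K27Ac peaks 5.62% (670 of 11932) held an Oct4 site. Requiring the site in both libraries lowers this share, which was 9.001% with all replicate 1 peaks and 10.8% with all replicate 2 peaks. Ranked by the mean score of both H3K27Ac libraries, peaks with Oct4 had a median percentile of 82.3 (quartiles 60.0 and 93.7) and peaks without had 48.1 (23.9 and 72.9). By the score of library 1 alone the medians were 82.2 and 48.2, and by library 2 alone 78.6 and 49.1. Median widths were 2249.5 bp and 977 bp, a ratio of 2.30 (2.11 and 2.08 with each Oct4 library alone). A wide peak offers more bases to overlap, and width and score rise together in peak lists. With 50% of the shorter peak required, the width ratio was 2.80 and the difference in median percentile 36.9. The part of peak width in these values was not tested. Within the strongest decile, the 151 peaks narrower than the median of the list held an Oct4 site in 15.2% (10.4 to 21.8).

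The share with Oct4 was higher in stronger and wider deciles. It was 0.671% in the weakest decile by score (8 of 1193), 2.76% in the fifth and 19.3% in the strongest (231 of 1194, 17.2 to 21.7). With all peaks of replicate 1 or of replicate 2, the strongest decile had 30.4% and 31.5%, and the weakest 1.59% and 2.10%. By width it was 2.26% in the narrowest decile, 2.76% in the fifth and 21.6% in the widest. The stronger deciles differed most away from a TSS, where 29.9% of the strongest decile held an Oct4 site (172 of 576), against 9.55% of the strongest decile near a TSS (59 of 618). Taken over all peaks, 3.09% of those near a TSS and 7.33% of those farther away held one. Accordingly, 22.2% of peaks with Oct4 and 41.5% of peaks without lay within 1000 bp of a TSS, a difference of -19.2 points (-22.4 to -15.8). That difference was -8.58 with all replicate 1 peaks and -15.3 with all replicate 2 peaks. The first is a change of more than 1.5 times, with replicate 2 and the limit to shared sites both left out.

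**Figure D4:**
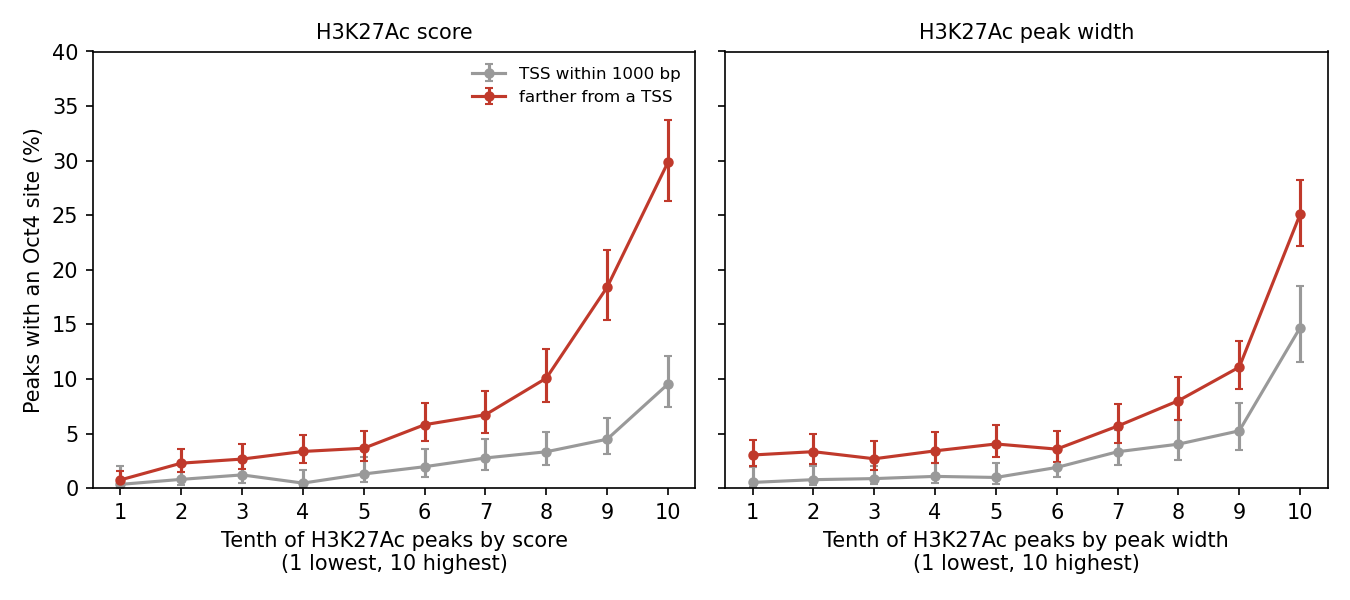
Share of H3K27Ac peaks that hold an Oct4 site, by decile of H3K27Ac score (left) and of peak width (right), for peaks near a TSS (grey) and farther away (red), with Wilson 95% intervals. Away from a TSS the share reached 29.9% in the strongest decile by score, and near a TSS 9.55%.

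The other marks of these peaks depended on position. H3K4me3 overlapped 58.5% of H3K27Ac peaks with Oct4 and 59.3% of those without, and the interval of the difference, -4.67 to 2.99 points, included 0. The sign depended on the Oct4 library: the difference was 6.41 points with all replicate 1 peaks (3.36 to 9.35) and -3.14 with all replicate 2 peaks (-6.02 to -0.291). Within the stronger 50% of the H3K27Ac list it was -7.33 (-11.6 to -3.24). Away from a TSS, H3K4me3 overlapped 48.0% of peaks with Oct4 (250 of 521) and 33.2% of those without (2188 of 6591), a difference of 14.8 points (10.4 to 19.2). Within the stronger 50% of those distal peaks the shares were 53.9% and 43.9%. H3K9me3 overlapped 10.3% of peaks with Oct4 and 6.37% of those without, a difference of 3.93 points (1.80 to 6.50), but with 50% of the shorter peak required it was 0.308 (-1.36 to 2.57), and among narrower peaks the shares were 7.30% and 6.60%. Another H3K27Ac peak lay within 12.5 kb of 77.6% of peaks with Oct4 and 68.3% of those without. Near a TSS the values were 75.2% (67.7 to 81.4) and 52.9% (51.5 to 54.4), and away from a TSS they were 78.3% and 79.2%.

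Few peaks held several sites. Of the 670, 583 held 1 Oct4 site, 78 held 2, 8 held 3 and 1 held 4. Median H3K27Ac percentiles were 81.4, 89.6, 97.5 and 99.0 in that order, and median widths were 2078, 3979.5, 5441.5 and 7960 bp. The peak with 4 sites spanned the promoter of Inhbb, which encodes an inhibin and activin subunit (chr1:121315077-121323036). Of the peaks with 3 sites, 2 named by score lay over a TSS of Rif1, which encodes a replication timing factor, and 121 kb from Med13l, a Mediator subunit gene.

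The 10 strongest H3K27Ac peaks with Oct4 lay by known genes of pluripotency among others. In order they were nearest to Klf4, Sox2, Cacng7, Cbfa2t2, Inhbb, Rif1, Ube2d3, Manba, Pou5f1 and Dido1. The Klf4 peak, 50.2 kb from the TSS of this pluripotency factor, was the strongest of the whole list with scores of 94.3 and 100.5 in the 2 H3K27Ac libraries and held 2 Oct4 sites, outside the 50 kb used for the gene lists. The Sox2 peak scored 68.5 and 111.0, and the Pou5f1 peak scored 111.9 and 40.7. Of these 10 peaks, 5 had a TSS within their bounds (Sox2, Rif1, Ube2d3, Pou5f1 and Dido1). The 10 strongest without Oct4 were nearest to Slc6a6, Pcbp1, Hnrnpk, Rpl27a, Mkrn1, Jub, Pfn1, Sall4, Ubtf and Ptma, and 9 of them spanned a TSS. Several of these genes serve general cell functions, such as RNA binding (Pcbp1, Hnrnpk), the ribosome (Rpl27a) and the actin cytoskeleton (Pfn1), while Sall4 is a pluripotency factor.

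Fewer than 50% of the pluripotency factors listed had an acetylated Oct4 site nearby, but this exceeded the share over all genes. Of 20 pluripotency transcription factors, 9 had an Oct4 site with H3K27Ac within 50 kb of a TSS, and 4 had 1 without, while 4.69% and 3.92% of all protein-coding genes did. The 9 were Pou5f1, Sox2, Nanog, Klf2, Klf5, Esrrb, Tcfcp2l1, Tbx3 and Prdm14, if sites of any strength are counted. Sox2, the partner of Oct4, had 5 sites within 50 kb, 4 of them with H3K27Ac, and the strongest had folds of 11.8 and 5.26 in replicates 1 and 2. Pou5f1 itself had 2 sites, both with H3K27Ac, the stronger one 1.90 kb from the TSS with folds of 8.35 and 12.5 and with the composite shown above. Nanog had 1 site, with H3K27Ac, at 6.50 and 5.43. Klf2 had 3 sites, all with H3K27Ac, the strongest at 10.6 and 14.1 inside an H3K27Ac peak of 23208 bp. Esrrb had 2, the stronger at 11.8 and 11.5. At Tcfcp2l1 the strongest site, at 9.45 and 14.5 and 1.61 kb from the TSS, lacked H3K27Ac, as did both sites of Mycn. This Tcfcp2l1 site and the stronger Mycn site failed the overlap rule but lay within 1000 bp of an H3K27Ac peak. The Mycn site ended 203 bp from it. Sox2 and Prdm14 each also had 1 site without H3K27Ac, so that 3 of the 20 genes had both kinds, against 0.396% of all genes. An H3K27Ac peak lay within 50 kb of 19 of the 20, against 45.4% of all genes.

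Among the lists, that of signalling and Dppa genes had the largest share of genes with an acetylated Oct4 site nearby. Its interval (43.0 to 80.3) overlapped that of the pluripotency list (25.8 to 65.8). Of 22, 14 had an Oct4 site with H3K27Ac within 50 kb and 3 had 1 without, against 4.69% and 3.92% of all genes. The 3 were Id3, Il6st and Dppa3, of which Dppa3 had both kinds. Lefty1 and Lefty2, antagonists of Nodal, are neighbours and share the same 4 sites, the strongest at 10.6 and 10.1. Tdgf1, the Nodal co-receptor, had 2 sites with H3K27Ac, the stronger at 10.6 and 9.07. Lifr, the LIF receptor gene, had 2, the stronger at 11.2 and 9.87. Id3, a target of BMP signals, had a single site, at 13.1 and 12.01, without H3K27Ac.

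The Oct4 sites counted near lineage regulators lacked H3K27Ac, in a list where few genes had an H3K27Ac peak nearby. Of 19 regulators of early lineages found in the annotation, 0 had an Oct4 site with H3K27Ac within 50 kb (upper bound 16.8%) and 4 had sites without: Cdx2 with 3, and Tcfap2c, Pax6 and Neurog1 with 2 each. Over all genes the shares are 4.69% and 3.92%, so a count of 0 among 19 is near the background. All 19 had an H3K4me3 peak within 1000 bp of a TSS and 0 had H3K27Ac there, against 63.9% and 20.7% of all genes. An H3K27Ac peak lay within 50 kb of 3 of the 19, against 45.4% of all genes. The strongest site at Cdx2, the trophectoderm regulator, had folds of 5.17 and 9.33 and lay 326 bp from a TSS, and that of Neurog1, a neurogenic factor, had folds of 9.97 and 10.9. The strongest site of Tcfap2c, a trophoblast and germ cell factor, had folds of 10.6 and 9.78.

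The remaining lists gave small counts. Of 11 primed pluripotency genes, 3 had a site with H3K27Ac within 50 kb (Otx2, Zic2 and Lef1) and 2 had 1 without (Lef1 and Foxd3). Over all genes these shares were 4.69% and 3.92%. Of 80 cytosolic ribosomal protein genes, 77 had H3K27Ac within 1000 bp of a TSS, against 20.7% of all genes. An Oct4 site lay within 1000 bp of 0 of the 80 (upper bound 4.58%), which is near the 1.01% of all genes. Within 50 kb, 1 of the 80 had a site with H3K27Ac and 7 had 1 without, against 4.69% and 3.92% of all genes. Genes that lie close together can share a site, so genes of a list are not independent.

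**Figure D5:**
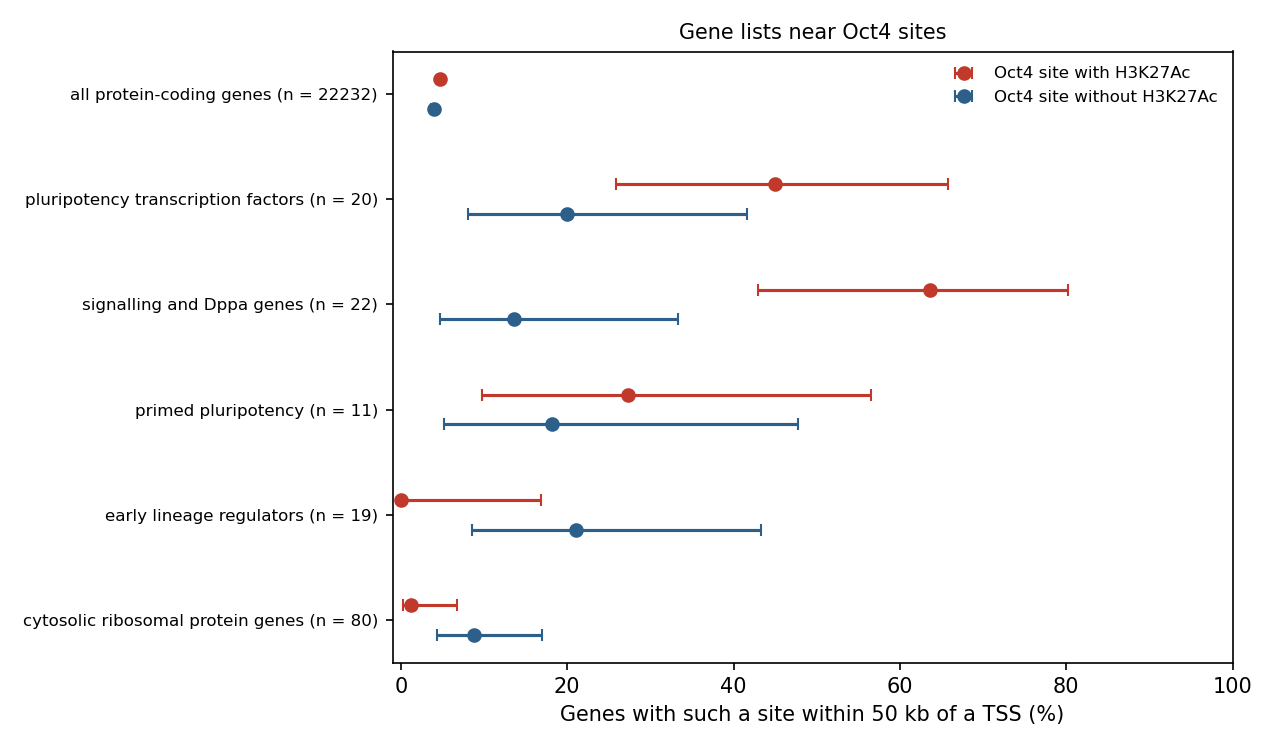
Share of genes with an Oct4 site within 50 kb of a TSS, for sites with (red) and without (blue) H3K27Ac, for all protein-coding genes and for 5 lists, with Wilson 95% intervals. In the signalling and Dppa list 14 of 22 genes had a site with H3K27Ac, and in the early lineage list 0 of 19. Over all protein-coding genes that share was 4.69%.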

How the data were processed

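ChIP-seq peak lists of Spen KO clone 2 mESCs were analysed: 2 Oct4 lists, 1 per library, and 1 list each for H3K27Ac, H3K4me3 and H3K9me3. The methods state that Bowtie2 alignments to mm9 were limited to uniquely placed, concordant pairs and cleared of duplicates by Picard, and that MACS2 then called peaks over input (q-value limit 0.01). The deposited Oct4 lists give the fold enrichment over input and the −log10 q-value of each peak, with no filter between libraries. The deposited H3K27Ac and H3K4me3 lists hold peaks with an irreproducible discovery rate below 0.05 between 2 libraries, with 1 score per library, and the MACS2 column behind the score is not given in the sources used here. The deposited H3K9me3 list holds domains of joined 200 bp windows with a score, and its caller is not given in the sources used here. Other columns of the lists, such as the irreproducible discovery rate, were not compared.

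Groups and replicate numbers came from the labels. Overlap meant at least 1 bp, and distances were taken to the nearest of 46006 TSSs of protein-coding genes in GENCODE M1 on NCBIM37, which is mm9. Shares carry Wilson 95% intervals and differences of shares Newcombe 95% intervals. Both cover counting error only, and neighbouring peaks are not independent. H3K27Ac peaks were ranked by the mean score of both libraries, and Oct4 sites by the mean fold of both libraries. Motif words were searched in 200 bp around the summit and in equal windows 1000 bp to each side. The 10 highest sites and peaks of each set were named by their nearest TSS, with the list genes nearest to strong sites and the 3 H3K27Ac peaks with the most Oct4 sites. The members and gene lists were chosen with earlier results of these data known. The searches for repeated words and multi-copy words were added after seeing the data. Sox1 was not found in the annotation. A list of histone acetylation genes is not reported here. Overlap, distance, motif and interval code was tested on simulated data. Python 3.11.15, numpy 2.4.6 and pandas 2.3.3 were used. Peak calling limits all shares, since a site under the threshold of a list counts as lacking the mark. Input libraries entered only through the deposited peaks and their fold enrichment over input. WT lists were used only to count the peaks of the whole series.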

Additional observations from a re-analysis of the deposited data

How the results depend on the processing

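No paired analysis was possible because no result comes from a test: the H3K27Ac list is 1 combined list. Of the recomputed values, 66 stayed within the spread of the 2 Oct4 libraries or their counting interval, and 49 moved beyond it. The values for each Oct4 library alone cover all its peaks, also those not shared with the other library. Taking each Oct4 library alone, the share of Oct4 sites with H3K27Ac was 45.2% to 47.3%, the share of H3K27Ac peaks with Oct4 9.001% to 10.8%, the fold ratio 1.00 to 1.05, the Oct4 width ratio 1.12 to 1.14, the score percentile difference 31.6 to 34.2, the H3K27Ac width ratio 2.08 to 2.11, the TSS difference of H3K27Ac peaks -15.3 to -8.58, the H3K4me3 difference 15.8 to 20.9 at Oct4 sites and -3.14 to 6.41 at H3K27Ac peaks, the H3K9me3 difference at Oct4 sites -9.61 to -3.17 and the octamer difference -2.55 to -1.94. The H3K4me3 difference at H3K27Ac peaks had opposite signs with each Oct4 library alone, with intervals that excluded 0 in both.

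Requiring 50% of the shorter peak gave 45.8% of Oct4 sites and 4.601% of H3K27Ac peaks in overlap, width ratios of 1.07 (Oct4) and 2.80 (H3K27Ac), a percentile difference of 36.9, and differences at H3K27Ac peaks of 3.35 for H3K4me3 and 0.308 for H3K9me3. Allowing a 1000 bp gap gave 59.8%, 8.15%, 1.06, 1.65, 26.4, -5.94 and 7.05 in that order, with 31.6 for H3K4me3 and 2.31 (-1.02 to 5.46) for H3K9me3 at Oct4 sites. The stronger 50% of H3K27Ac peaks gave 44.3%, 9.27%, a percentile difference of 13.3, a width ratio of 2.10, a TSS difference of -27.0 and an H3K4me3 difference of -7.33 at H3K27Ac peaks. The stronger 50% of Oct4 sites gave 2.91% of H3K27Ac peaks, a width ratio of 2.78 and an octamer difference of -8.45. Sites defined by replicate 2 peaks gave width ratios of 1.09 (Oct4) and 2.18 (H3K27Ac), and an octamer difference of -3.47. Oct4 lay in 2.30% of the narrower and 8.94% of the wider 50% of H3K27Ac peaks. The score of library 2 alone gave a percentile difference of 29.5, distal peaks alone an H3K4me3 difference of 14.8, and the composite a difference of -0.930. The causes were not tested. Depth is unknown, so a missing overlap may be a missed peak.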
